A study of Mus musculus with 8 samples.

Results

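The comparison described here set 2 cocultures of p53-knockdown and mock mouse embryonic stem cells against 2 RNA mixes of the same kinds of cell, and it took 4 of the 8 expression arrays of the study by their titles. Its members were all probe sets with a single gene symbol, 34958 of the 45101 on the array, which name 18194 genes. In the group called shp53 coculture, cells with a short hairpin against p53 (shp53) and mock cells were put together at 1:4 and grown in a shared dish for 4 days. In the group called shp53 mix, the control, each kind of cell was cultured alone for 4 days, and RNA from both was then pooled at 1:4. All were mouse embryonic stem cells with the strain background 129X1 x 129S1, kept under standard culture conditions, and knockdown RNA made up 20% of each mix. The other 4 arrays (shTop1 coculture and shTop1 mix, 2 each) followed the same scheme with a hairpin against the topoisomerase Top1 and entered the fit as further groups. The labels call the arrays of a group biological replicates without naming separate thaws or passages, so the p-values cover only how far these samples vary, which may be technical. The vector, the number of clones and the hairpin sequences are not given in the sources used here, and p53's own transcript was not analysed here.

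p53 is a transcription factor that is held at low activity by Mdm2 and is released by DNA damage and other stresses, after which it drives genes for cell cycle arrest, repair and cell death. In pluripotent cells and early embryos, cells that differ in p53 or in growth signalling can outgrow or eliminate their neighbours when they are in contact, a behaviour known as cell competition. A mixed culture holds such contacts and a pool of RNA from separate cultures does not, so their difference addresses what living together changes. That includes any change in the share of knockdown cells, through which the knockdown's own effect on a cell can enter the difference. The 1:4 ratio is that at which the cells were combined, and their ratio after 4 days was not measured. In such bulk RNA, fewer cells of a type and less RNA per cell cannot be told apart.

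Values are linear signal intensities, quantile normalized over the 8 arrays, and differences are coculture minus mix in log2(signal + 16), given ± SE of a limma fit over all 8 arrays (n = 2 arrays a group). Mean deposited signal was 812 to 896 per array, the 3'/5' log2 ratio of Actb was 0.524 to 0.672 in the shp53 mixes and 0.508 to 0.585 in the shp53 cocultures, and replicates correlated at 0.974 to 0.982 over all probe sets. All 8 fixed stem cell markers were above the low-signal filter. The core factor Pou5f1 had 12104 and 13312 in the mixes and 12327 and 13245 in the cocultures, and Nanog had 6751 and 8239 in the mixes and 7787 and 9374 in the cocultures. Of 10 fixed fibroblast markers 6 were above the filter, and Col3a1, Postn, Dcn and Lum were not. Top1, which this hairpin does not target, had 5456 and 5682 in the mixes and 5572 and 5886 in the cocultures, a difference of 0.040 ± 0.093.

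Across the 14267 genes that passed the low-signal filter, 0 (0%) passed limma's test at an adjusted p of 0.05 (smallest value 0.270). Without adjustment, 552 genes (3.87%) were higher in coculture and 427 (2.99%) were lower at a p under 0.05, an excess that turned to 448 against 469 with the deposited scaling alone. In 2984 genes (20.9%) both cocultures lay above both mixes, and in 2439 (17.1%) both lay below. A difference above 0 was found in 7556 genes (53%) and one below 0 in 6711 (47%), and with median centring 62.1% lay above 0. These shares are the background for the counts of list members. The median difference over all tested genes was 0.014. With 2 arrays against 2, the smallest two-sided p of an exact permutation test of a single value is 0.333, so single values were not tested that way. The plot of difference against mean signal shows a spread that narrows as signal increases.

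**Figure D1:**
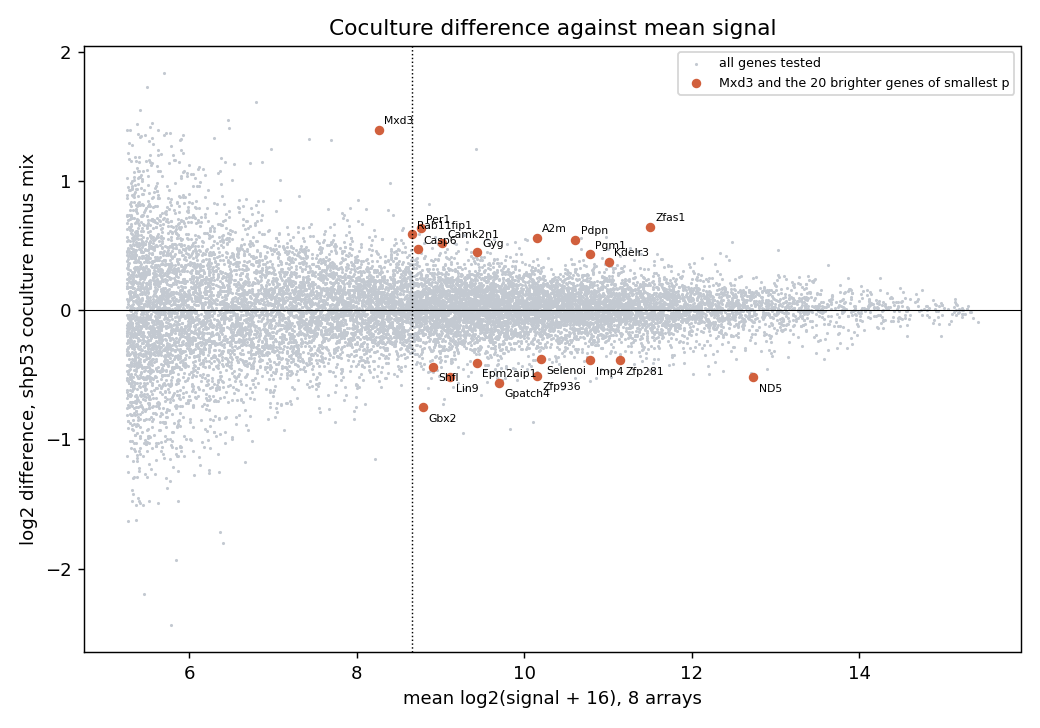
Each point is 1 of 14267 tested genes, with mean log2(signal + 16) over the 8 arrays across and the shp53 log2 difference, coculture minus mix, upwards. The dotted line is the median mean signal, and the labelled genes are Mxd3 at 1.40 and the 20 brighter genes with the smallest p, between -0.75 and 0.65.

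The brighter genes, 7134 with a mean at or above the median of all tested genes, carry the most precise values. Of these, both cocultures lay above both mixes in 1692 (23.7%) and below in 1219 (17.1%). The 10 with the smallest p in each direction had ratios of coculture to mix, as signal plus 16, from 0.595 to 1.56, and none passed the test (limma adjusted p 0.508 to 0.684). Because they were picked by this contrast, their separation is a description.

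Zfas1, a noncoding host gene of small nucleolar RNAs, had signals of 2444 and 2244 in the mixes and 3959 and 3409 in the cocultures. Both cocultures stood clear of both mixes, with a difference of 0.65 ± 0.11. Per1, a repressor of the circadian clock, had 324 and 367 in the mixes and 584 and 506 in the cocultures (0.63 ± 0.15). Rab11fip1, which works with Rab11 in endosome recycling, had 332 and 315 in the mixes and 511 and 477 in the cocultures (0.59 ± 0.12). In each of these 3 genes coculture replicate 1 was the highest of the 4 arrays. A2m, the protease inhibitor alpha-2-macroglobulin, had 986 and 918 in the mixes against 1459 and 1364 in coculture (0.56 ± 0.10). Pdpn, the membrane glycoprotein podoplanin, had 1307 and 1396 in the mixes against 2120.4 and 1848 in coculture (0.55 ± 0.13). Camk2n1, an inhibitor of calcium/calmodulin-dependent kinase II, had 422 and 436 in the mixes against 607 and 633 in coculture (0.52 ± 0.092), and here replicate 2 was the higher coculture. A pair of genes of glycogen and glucose phosphate handling was among these 10. Gyg, the glycogenin that primes glycogen synthesis, had 565 and 597 in the mixes against 814 and 785 in coculture (0.45 ± 0.092). Pgm1, a phosphoglucomutase, had 1466 and 1527 in the mixes against 2169 and 1892 in coculture (0.43 ± 0.11). The other two were Kdelr3, a receptor that returns proteins to the endoplasmic reticulum (0.38 ± 0.091), and the effector caspase Casp6 (0.47 ± 0.12).

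Among the 10 lower genes, ND5, a subunit of respiratory complex I encoded by mitochondrial DNA, had 8779 and 7823 in the mixes and 5974 and 5596 in the cocultures (-0.52 ± 0.11). Both mixes lay above both cocultures. Gbx2, a homeobox factor of the naive stem cell state that responds to LIF, had 445 and 601 in the mixes against 264 and 343 in coculture (-0.75 ± 0.19). Zfp281, a zinc finger factor of pluripotent cells, had 2627 and 2533 in the mixes against 1893 and 2049.8 in coculture (-0.39 ± 0.096). In both factors coculture replicate 1 was the lowest array. Lin9, a subunit of the MuvB cell cycle complex, had 658 and 596 in the mixes against 459 and 407 in coculture (-0.52 ± 0.13). Imp4, part of the U3 snoRNP that cleaves ribosomal RNA precursors, had 2021 and 2135 in the mixes against 1623 and 1543 in coculture (-0.39 ± 0.10), and the nucleolar protein gene Gpatch4 had 1028 and 934 in the mixes against 613 and 709 in coculture (-0.56 ± 0.14). The remaining genes were Shfl, an inhibitor of ribosomal frameshifting (-0.44 ± 0.10), the phospholipid synthesis enzyme Selenoi (-0.38 ± 0.095), the zinc finger gene Zfp936 (-0.51 ± 0.13) and Epm2aip1, which binds laforin (-0.41 ± 0.11).

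**Figure D2:**
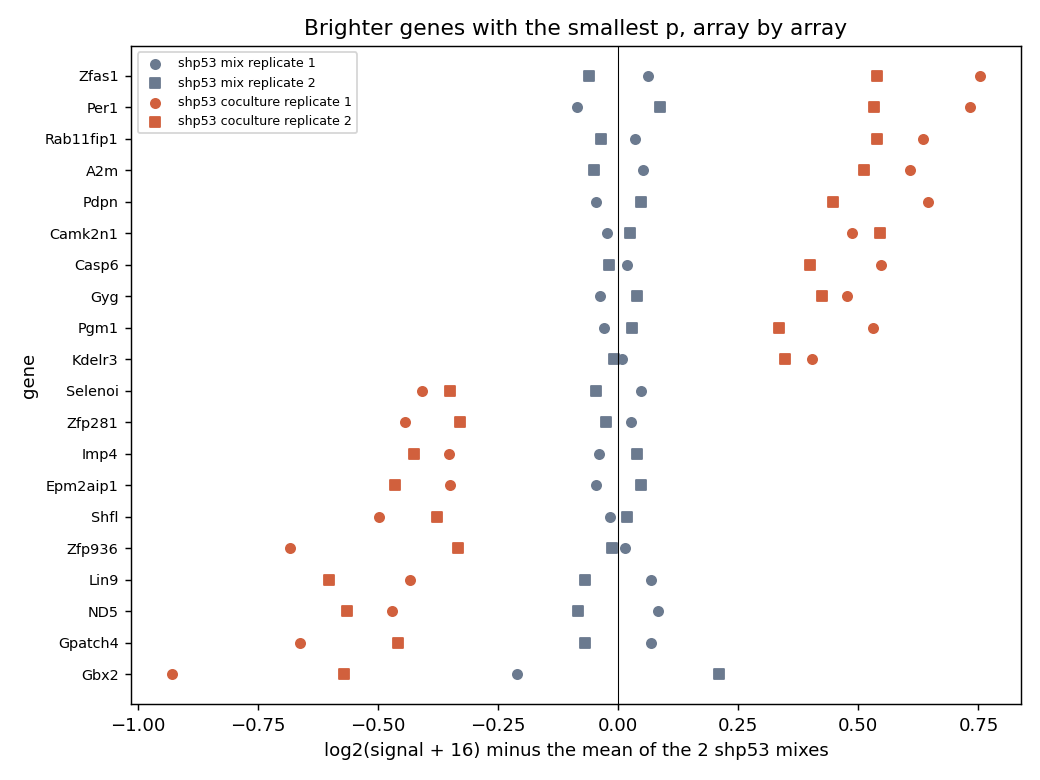
Each row is 1 of the 20 brighter genes with the smallest p, and each point is 1 shp53 array, as log2(signal + 16) minus the mean of the 2 mixes. Grey marks the mixes and orange the cocultures, circles replicate 1 and squares replicate 2. In every row both orange points lie on one side of both grey points, out to 0.65 on average for Zfas1 and -0.75 for Gbx2.

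Probe sets of a gene did not always go the same way. Of the 20 genes, 9 had another probe set above the filter, 14 in all, of which 9 had the sign of the brightest one. The opposite signs were in Pgm1, Selenoi and Epm2aip1. Over all the genes named below, averaging all probe sets of a gene in place of taking the brightest turned the sign of Aldoc, Anxa2, Bad, Bcl2, Bub1, Bub1b, Cdc45, Col1a2, Depdc5, Epm2aip1, Esrrb, Fbln1, Gata6, H2-D1, Lin28a, Pfkfb3, Rps24, Sesn1, Sox7, Sp110, Timp2 and Top1. Mxd3, a Mad family protein that pairs with Max in place of Myc, lies just outside the brighter genes. Its brightest probe set had 163 and 179 in the mixes and 531 and 428 in the cocultures (1.40 ± 0.17, limma adjusted p = 0.271). It was the only gene called with trended and robust variances (limma adjusted p = 0.0423), where 0.00701% of genes were called. The 2 dimmer Mxd3 probe sets had differences of -0.49 and -0.42, so the direction depends on the probe set. Over all genes the smallest p belonged to Gm3363 (55.9 and 45.9 in the mixes and 6.68 and 4.38 in the cocultures), Cd79a (5.74 and 9.71 in the mixes and 47.95 and 48.8 in the cocultures), Pfn4 (40.5 and 61.3 in the mixes and 7.66 and 7.73 in the cocultures) and 4933433G15Rik (44.6 and 39.8 in the mixes and 5.68 and 4.06 in the cocultures). In each, one group lay under a signal of 10, below the filter of 22.1, so the size of these differences is uncertain.

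For a wider view, 37 gene lists were described by their counts. They hold 725 places, of which 673 were named on the array and 642 passed the filter, and some genes stand in more than 1 list. None of the tested members passed over all genes. At an unadjusted p under 0.05 stood 51 of the 642 tested places, against 979 of all 14267 genes (3.87% higher and 2.99% lower). In 16 lists the median of the members was higher on both cocultures than on both mixes, and in 5 it was lower on both. The median over all tested genes was also higher on both cocultures (0.010 and 0.029) than on both mixes (-0.0045 and 0.0045). Its difference was 0.0044 with the deposited scaling alone and 0.059 with median centring, so the lean towards higher lists depends in part on the scaling. In 32 of 37 lists coculture replicate 1 lay farther from the mixes than coculture replicate 2, and the cause was not tested. With 1 of the 4 arrays left out, 14 of the 37 list medians turned sign, most of them medians near 0.

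**Figure D3:**
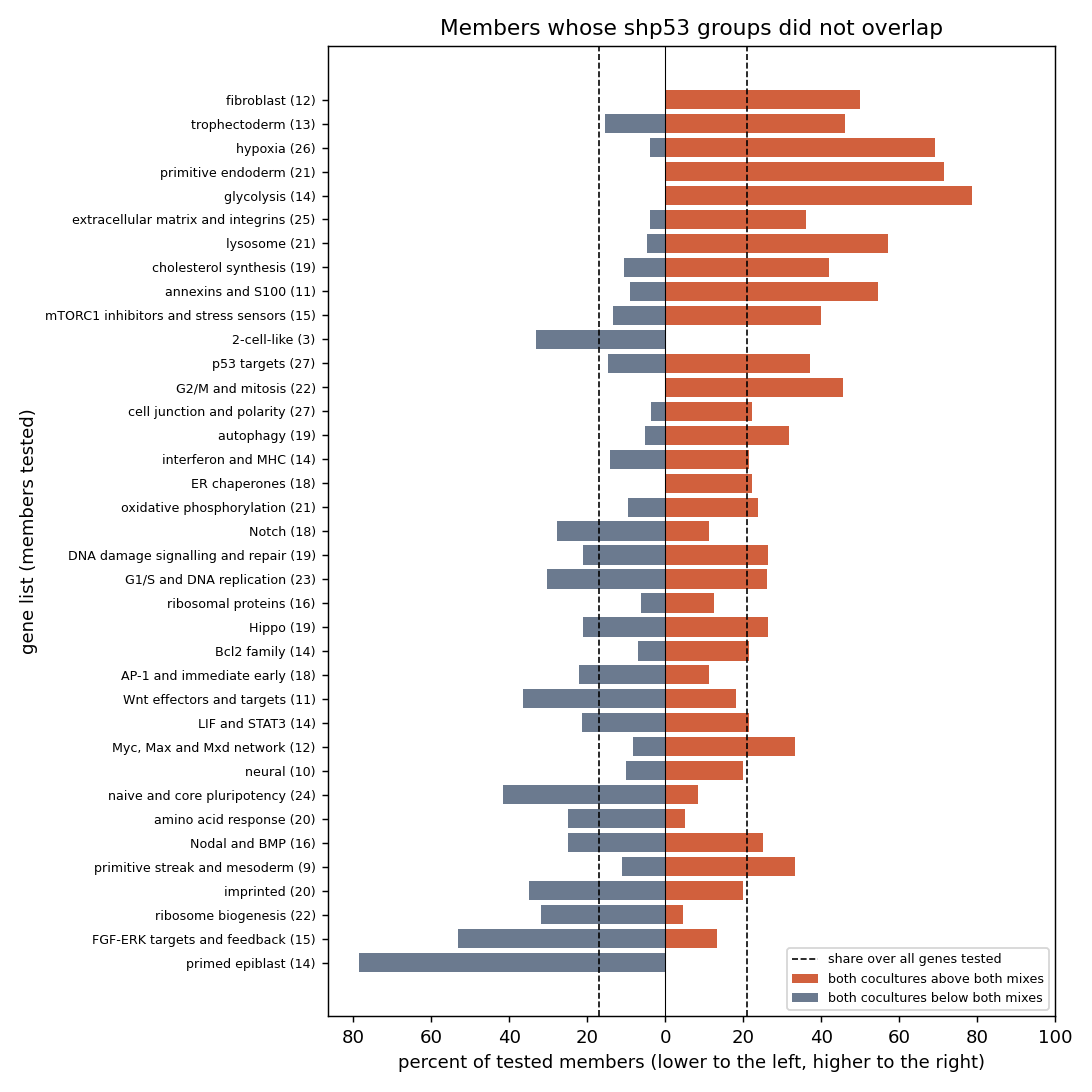
For each gene list, with the number of members tested in parentheses, orange bars to the right give the percent of tested members whose cocultures both lay above both mixes, and grey bars to the left the percent whose cocultures both lay below. Dashed lines mark the shares over all tested genes, 20.9% and 17.1%. Glycolysis reaches 78.6% higher and primed epiblast 78.6% lower.

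Genes that respond to low oxygen are driven by hypoxia-inducible factors, which bind a short core, ACGTG or GCGTG, once oxygen-dependent hydroxylases stop marking them for degradation. All 26 named members of 28 listed were tested, 23 lay above 0, and in 18 (69.2%) both cocultures exceeded both mixes, against 20.9% of all genes. The median difference was 0.19, and on the single coculture arrays it was 0.24 and 0.14. Ndrg1, Bhlhe40 and Pfkfb3 had the smallest p of the list. Ndrg1, a stress-induced gene linked to differentiation, had 1382 and 1262 in the mixes and 2249.8 and 1691 in the cocultures (0.56 ± 0.16), and its 5 probe sets all lay above 0. Bhlhe40, a transcriptional repressor, had 1869 and 1817 in the mixes and 2452 and 2234 in the cocultures (0.34 ± 0.10). Pfkfb3, which makes the activator of phosphofructokinase, had 279 and 289 in the mixes and 505 and 349.9 in the cocultures (0.54 ± 0.18), with coculture replicate 1 well above replicate 2. Nfil3, a bZIP repressor, had 197 and 172 in the mixes and 258 and 319.7 in the cocultures (0.60 ± 0.22), and here replicate 2 was higher. Bnip3, a mitophagy receptor, had 7863 and 7650 in the mixes and 9526 and 9061 in the cocultures (0.26 ± 0.099). Of the sensors and their feedback, the hydroxylase Egln3 had 2638 and 2634 in the mixes and 3110.2 and 3619.9 in the cocultures, whereas Egln1 (1757 and 1384 in the mixes and 1722 and 1571 in the cocultures) overlapped. The angiogenic ligand Vegfa (872 and 768 in the mixes and 811 and 707 in the cocultures) and the glucose transporter Slc2a1 (22686 and 19012 in the mixes and 22578 and 20791 in the cocultures) overlapped as well. Pdk1, the kinase that shuts off pyruvate dehydrogenase, lay the other way, with 6074 and 5408 in the mixes and 5077 and 5011 in the cocultures (-0.18 ± 0.15).

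The promoters of the hypoxia members with the smallest p that the RefSeq table holds are shown to let the core be seen beside these values. The 250 bases before each start are given 5′ to 3′ on the gene's strand from GRCm38.p6, in lower case with every ACGTG or GCGTG, on either strand, in capitals. Pfkfb3 has a pair of starts, at chr2:11502091-11502340 and chr2:11553930-11554179, Nfil3 lies at chr13:52981040-52981289 and Bnip3 at chr7:138909507-138909756, all on the minus strand.
Pfkfb3, start 1: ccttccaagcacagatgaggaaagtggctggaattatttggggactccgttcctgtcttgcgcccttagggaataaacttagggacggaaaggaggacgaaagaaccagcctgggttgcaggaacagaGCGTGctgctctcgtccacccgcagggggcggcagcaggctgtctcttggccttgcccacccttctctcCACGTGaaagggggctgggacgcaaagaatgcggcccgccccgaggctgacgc
Pfkfb3, start 2: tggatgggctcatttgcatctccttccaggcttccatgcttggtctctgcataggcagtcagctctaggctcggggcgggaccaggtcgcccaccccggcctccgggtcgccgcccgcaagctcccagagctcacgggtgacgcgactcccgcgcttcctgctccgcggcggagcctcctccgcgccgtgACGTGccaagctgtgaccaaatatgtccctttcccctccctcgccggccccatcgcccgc
Nfil3: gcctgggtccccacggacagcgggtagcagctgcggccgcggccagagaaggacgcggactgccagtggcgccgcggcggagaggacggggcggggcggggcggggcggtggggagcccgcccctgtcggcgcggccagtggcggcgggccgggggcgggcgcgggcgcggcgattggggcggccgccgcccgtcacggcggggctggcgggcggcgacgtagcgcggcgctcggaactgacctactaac
Bnip3: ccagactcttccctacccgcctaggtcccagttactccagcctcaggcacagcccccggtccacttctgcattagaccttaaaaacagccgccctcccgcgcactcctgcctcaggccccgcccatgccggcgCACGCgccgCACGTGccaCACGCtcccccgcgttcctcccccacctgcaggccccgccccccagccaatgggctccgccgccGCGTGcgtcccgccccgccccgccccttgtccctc
The first Pfkfb3 start has 3 matches, the second 1, Bnip3 5 and Nfil3 0, counting each strand's match, so that CACGTG, which reads the same on both strands, counts as 2. Promoters were found for 22 of the 26 genes, with 32 starts. Of these starts 25 (78.1%) held a match, against 12679 of 32851 promoters (38.6%) of the whole table, which was not matched on base composition. A match is a run of letters and does not show binding.

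Glycolysis turns glucose into pyruvate and lactate and overlaps with the hypoxia response. Of 14 tested members of 16 listed, 13 lay above 0, and in 11 (78.6%) the groups did not overlap, with a median of 0.15 and array medians of 0.14 and 0.13. The brain and neuronal isoenzymes led. Aldoc, an aldolase, had 1783 and 1659 in the mixes and 2651 and 2155 in the cocultures (0.47 ± 0.13), and with the mean of its probe sets its difference was -0.0055. Eno2, an enolase, had 161 and 163 in the mixes and 269 and 215 in the cocultures (0.53 ± 0.13). With shTop1, Eno2 had 224 and 236 in the mixes and 247 and 219 in the cocultures (0.017 ± 0.13), so the shp53 mixes were the lowest of all arrays. The phosphofructokinase Pfkl had 5192 and 5493 in the mixes against 6306 and 6056 in coculture (0.21 ± 0.11), the phosphoglycerate kinase Pgk1 26547 and 25967 in the mixes against 29616 and 28878 in coculture (0.16 ± 0.095) and the triose phosphate isomerase Tpi1 18143 and 18840 in the mixes against 21097 and 20029 in coculture (0.15 ± 0.10). Lactate dehydrogenase Ldha (28130 and 28371 in the mixes and 29035 and 28671 in the cocultures) and Gapdh (35245 and 35979 in the mixes and 35743 and 36710 in the cocultures) differed by little. Pyruvate can instead feed the respiratory chain. Of 21 respiratory chain and ATP synthase genes, 14 lay above 0 against 53% of all genes, with a median of 0.027 (0.0097 without mix replicate 1). In 5 (23.8%) the cocultures were higher, near the 20.9% of all genes. Uqcrfs1, the iron-sulphur subunit of complex III, had 3767 and 3803 in the mixes and 4349 and 4557 in the cocultures (0.23 ± 0.093). The electron carrier Cycs (-0.22 ± 0.11) and the ATP synthase subunit Atp5o (-0.25 ± 0.15) lay below 0.

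Cholesterol is made from acetyl-CoA under control of the SREBP factors. Of 19 tested members 16 lay above 0, with a median of 0.13, and 8 (42.1%) had higher cocultures. Pmvk, phosphomevalonate kinase, had 1006 and 883 in the mixes and 1170.5 and 1122 in the cocultures (0.28 ± 0.12), Fdft1, squalene synthase, 4557 and 4766 in the mixes and 5411 and 5378 in the cocultures (0.21 ± 0.094) and the sterol carrier Stard4 947 and 1000.1 in the mixes and 1080.4 and 1102 in the cocultures (0.16 ± 0.097). With any 1 of the 4 arrays left out, the list median ranged from 0.055 to 0.14, lowest without mix replicate 2.

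Lysosomes degrade what autophagy and endocytosis deliver, and their genes are driven in part by Tfeb. Of 21 tested lysosomal members, 18 lay above 0 and in 12 (57.1%) both cocultures were higher, with a median of 0.13 and array medians of 0.22 and 0.098. Hexa, a subunit of beta-hexosaminidase, had 3828 and 3764 in the mixes and 4769 and 5027 in the cocultures (0.37 ± 0.10), with no overlap and replicate 2 the higher. Lamp2, a membrane protein of the lysosome, had 1986 and 2109 in the mixes and 3105 and 2644 in the cocultures (0.48 ± 0.20). The proteases Ctsa (0.29 ± 0.12) and Ctsb (0.30 ± 0.14) and the channel Mcoln1 (0.26 ± 0.13) were also without overlap. Tfeb itself lay below, with 451 and 415 in the mixes and 358 and 324 in the cocultures (-0.33 ± 0.11). Among 19 autophagy genes 14 lay above 0 and 6 (31.6%) had higher cocultures (median 0.067, 0.12 without either mix). Atg12, a ubiquitin-like protein of phagophore growth, had 860.5 and 927 in the mixes and 1196 and 1108 in the cocultures (0.36 ± 0.11), the Atg8 family member Gabarapl1 611 and 691 in the mixes and 851 and 889.7 in the cocultures (0.41 ± 0.15) and the receptor Sqstm1 2773 and 2889 in the mixes and 3316 and 3402 in the cocultures (0.25 ± 0.11).

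mTORC1 senses nutrients and restrains autophagy, and it is itself restrained by sestrins, Ddit4, the TSC complex and GATOR1. Of 15 tested inhibitors and sensors, 10 lay above 0, with a median of 0.097 and array medians of 0.18 and 0.051, and 6 (40%) had higher cocultures. Without mix replicate 1 the median was 0.18, and without mix replicate 2 it was 0.016. The GATOR1 subunit Depdc5 had 304 and 348 in the mixes and 382 and 397 in the cocultures (0.25 ± 0.11), the TSC subunit Tsc1 417 and 418 in the mixes and 474 and 502 in the cocultures (0.22 ± 0.12) and the p53 target Sesn1 604 and 617 in the mixes and 698 and 718 in the cocultures (0.21 ± 0.099). Depdc5 and Sesn1 turned sign with the mean of their probe sets. Ddit4, induced by hypoxia and by p53, had 10348 and 9649.8 in the mixes and 12600 and 10470 in the cocultures (0.20 ± 0.12), and Sesn2, also a target of Atf4, 721 and 1008 in the mixes and 660.2 and 759 in the cocultures (-0.26 ± 0.18).

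Of the direct p53 targets, 28 of 30 listed were named and 27 tested. Of these, 19 lay above 0 and in 10 (37%) both cocultures were higher, with a median of 0.094. The array medians were 0.16 and 0.0013, so the shift lay on coculture replicate 1. The cell cycle inhibitor Cdkn1a had 1910.5 and 1880 in the mixes and 2669.9 and 2213 in the cocultures (0.36 ± 0.17), and both its probe sets had this difference. Mdm2, the ubiquitin ligase that feeds back on p53, had 2776 and 2621 in the mixes and 3091 and 2869.8 in the cocultures (0.14 ± 0.12). The death receptor Tnfrsf10b had 144 and 147 in the mixes and 180.3 and 169 in the cocultures (0.24 ± 0.094) and the repair factor Xpc 329.9 and 387 in the mixes and 401 and 459 in the cocultures (0.25 ± 0.13). Others lay below or near 0, such as Perp, a desmosomal death gene (-0.13 ± 0.11), the Akt repressor Phlda3 (-0.11 ± 0.099), Gadd45a (-0.095 ± 0.11) and Ccng1 (0.085 ± 0.11). In the Bcl2 family the 7 above 0 and 7 below of 14 gave a median of 0.0094, whose sign turned with the deposited scaling. The anti-apoptotic Bcl2 had low signals of 41.6 and 31.4 in the mixes and 61.2 and 74.2 in the cocultures (0.67 ± 0.18), with its 5 probe sets in disagreement, the sensor Bad 291 and 286 in the mixes and 336 and 371 in the cocultures (0.28 ± 0.16) and the p53 target Bbc3 724 and 689 in the mixes and 729 and 875 in the cocultures (0.17 ± 0.15).

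Genes of DNA damage signalling and repair had 10 of 19 above 0, near the 53% of all genes, and a median of 0.017. The checkpoint kinase Chek2 had 1614 and 1653 in the mixes and 1439 and 1387 in the cocultures (-0.21 ± 0.098) and the ligases Lig4 and Lig1 differences of -0.21 ± 0.14 and 0.25 ± 0.17. Amino acid response genes, targets of Atf4, had a median of -0.020, which turned sign with median centring. Of 20 tested, 1 (5%) was higher and 5 (25%) lower without overlap, against 20.9% and 17.1% of all genes. The cationic amino acid transporter Slc7a3 had 4186 and 4095 in the mixes and 3066 and 3733 in the cocultures (-0.29 ± 0.12), and the factors Cebpb and Atf3 had -0.33 ± 0.14 and -0.26 ± 0.15. Chaperones of the endoplasmic reticulum had 13 of 18 above 0 (median 0.042, 0.064 without mix replicate 1), and 4 (22.2%) had higher cocultures, near the 20.9% of all genes. The disulphide isomerase Pdia6 had 3731 and 4032 in the mixes and 5087 and 5189 in the cocultures (0.40 ± 0.12), its relative Pdia4 2062 and 2020 in the mixes and 2349 and 2903 in the cocultures (0.35 ± 0.16) and the cochaperone Sdf2l1 1508 and 1616 in the mixes and 1883 and 1884 in the cocultures (0.27 ± 0.11).

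**Figure D4:**
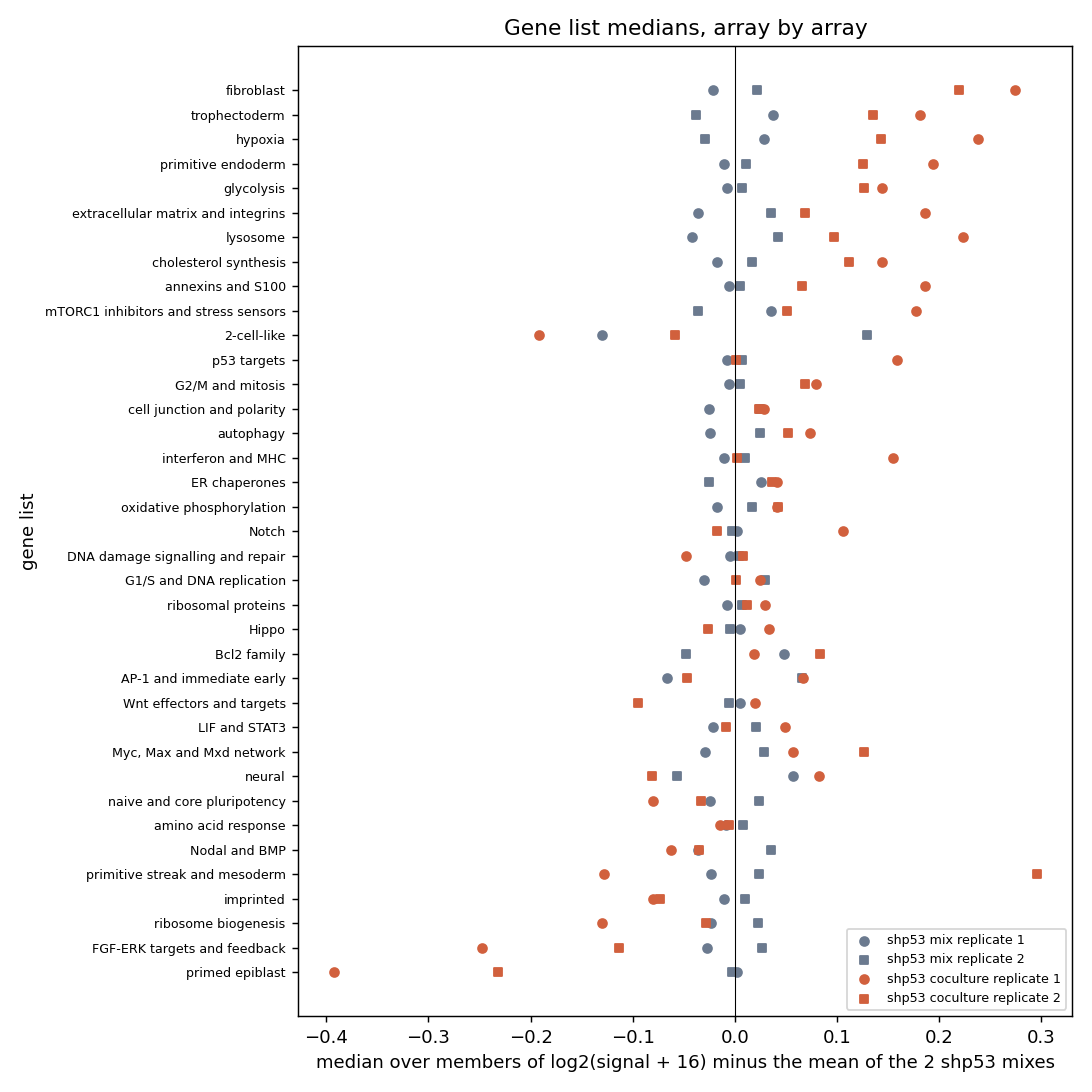
Each row is a gene list and each point 1 shp53 array, as the median over members of log2(signal + 16) minus the mean of the 2 mixes. Grey marks the mixes and orange the cocultures, circles replicate 1 and squares replicate 2. Primed epiblast lies at -0.39 and -0.23 and hypoxia at 0.24 and 0.14 on the 2 cocultures.

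Stem cells in this state sit between a naive condition and the primed epiblast that follows implantation. Of 24 naive and core pluripotency genes, 12 lay above 0 and 12 below (median -0.017, positive with median centring), and in 10 (41.7%) both cocultures were lower, against 17.1% of all genes. Of these 10, the 5 with the smallest p were Gbx2, given above, Zfp42 (11975 and 12292 in the mixes and 8952 and 10340 in the cocultures, -0.33 ± 0.14), the core factor Sox2 (15341 and 12271 in the mixes and 11104 and 10054 in the cocultures, -0.38 ± 0.17), the chromatin-associated Dppa2 (4199.5 and 4436 in the mixes and 3298 and 3750.3 in the cocultures, -0.29 ± 0.15) and the nuclear receptor Nr0b1 (2940.1 and 2665 in the mixes and 1936 and 2568 in the cocultures, -0.33 ± 0.17). The other 5 were Dppa3 (-0.20), Tet1 (-0.12), Klf4 (-0.089), Lin28a (-0.070) and Klf5 (-0.044, above 0 with median centring). Fgf4, the ligand that stem cells secrete to leave the naive state, lay above with 4523 and 4694 in the mixes and 5506 and 5851 in the cocultures (0.30 ± 0.12). Pou5f1 (0.0095 ± 0.10), Esrrb (0.025 ± 0.11), Utf1 (0.074 ± 0.21), Dppa4 (0.073 ± 0.16), Dppa5a (0.047 ± 0.096) and Nanog (0.20 ± 0.16) overlapped between the groups.

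All 14 tested members of the primed epiblast list lay below 0, and in 11 (78.6%) both cocultures were lower, with a median of -0.29 and array medians of -0.39 and -0.23. None passed the test. The POU factor Pou3f1 had 939 and 865 in the mixes and 565 and 657 in the cocultures (-0.55 ± 0.18), and both its probe sets lay near this value. The Wnt effector Lef1 had 954 and 771 in the mixes and 596 and 677 in the cocultures (-0.42 ± 0.17), although its dimmer probe set had 0.09. The zinc finger factor Zic2 had 245 and 342 in the mixes and 158 and 218 in the cocultures (-0.60 ± 0.25). Otx2, the homeobox factor that opens the primed state, had 2012 and 1848 in the mixes and 1496 and 1680.5 in the cocultures (-0.28 ± 0.13), and the de novo DNA methyltransferase Dnmt3a had 2333 and 2308 in the mixes and 1726 and 2086 in the cocultures (-0.29 ± 0.12). Fgf5, the ligand that marks this state, had 119 and 80.7 in the mixes and 66.7 and 76.3 in the cocultures (-0.39 ± 0.19), and mix replicate 2 stood only slightly above coculture replicate 2. The groups overlapped for Foxd3, Grhl2 and Etv4.

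Primitive endoderm, the extraembryonic layer that can appear in stem cell cultures, had 21 tested members, of which 20 lay above 0 and 15 (71.4%) had higher cocultures, with a median of 0.16 and array medians of 0.19 and 0.13. The endocytic receptor Cubn had 4232 and 4000.1 in the mixes and 5244 and 4780.3 in the cocultures (0.28 ± 0.13), its partner Amn 2569 and 2817 in the mixes and 3211 and 3125 in the cocultures (0.23 ± 0.11), the growth factor receptor Pdgfra 1254 and 1289 in the mixes and 1446 and 1543 in the cocultures (0.23 ± 0.11) and the laminin chain Lama1 9742 and 10874 in the mixes and 12818 and 11396 in the cocultures (0.23 ± 0.12). The regulator Gata6 had 1389 and 1409.6 in the mixes and 1797 and 1458 in the cocultures (0.21 ± 0.13), while Gata4 (0.035 ± 0.12) and Sox7 (0.021 ± 0.095) overlapped. Trophectoderm genes had 8 of 13 above 0 (median 0.20, 0.10 without mix replicate 1), and 6 (46.2%) had higher cocultures. The factors Gata2 (198 and 188 in the mixes and 233 and 259 in the cocultures, 0.32 ± 0.10) and Ascl2 (216 and 193 in the mixes and 287 and 259 in the cocultures, 0.39 ± 0.14) were higher and Tfap2a (125 and 79.5 in the mixes and 74.6 and 68.05 in the cocultures, -0.41 ± 0.19) lower. The simple epithelial keratins Krt8 (0.16 ± 0.095) and Krt18 (0.20 ± 0.12) stand in both lists.

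The primitive streak list had 9 tested members, with array medians of -0.13 and 0.30, so the cocultures did not go one way. Mixl1 had 30.7 and 31.4 in the mixes and 61.1 and 41.9 in the cocultures (0.51 ± 0.17), Hand1 32.4 and 29.95 in the mixes and 37.1 and 74.4 in the cocultures (0.55 ± 0.29) and Tbx6 45.1 and 60.6 in the mixes and 46.2 and 38.4 in the cocultures (-0.23 ± 0.16). The neural list had 10 tested members and a median of -0.0041, whose sign turned with median centring. Sox1 had 121 and 90.3 in the mixes and 53.8 and 3.36 in the cocultures (-1.72 ± 0.55), Hes5 11.5 and 9.97 in the mixes and 43.8 and 57.5 in the cocultures (1.31 ± 0.64) and the RNA-binding Msi1 343 and 328 in the mixes and 427 and 427 in the cocultures (0.33 ± 0.21). Coculture replicate 2 was close to 0 in Sox1 signal. Of the 2-cell-like list 3 members were tested. Usp17la had 259 and 294 in the mixes and 239.6 and 236 in the cocultures (-0.20 ± 0.21) without overlap, and Zfp352 (0.20 ± 0.45) and Sp110 (0.096 ± 0.23) overlapped. Imprinted genes had 8 of 20 above 0, against 53% of all genes, and a median of -0.063. Without overlap, 7 (35%) were lower and 4 (20%) higher, against 17.1% and 20.9% of all genes. The noncoding RNA Kcnq1ot1 had 308 and 338 in the mixes and 247 and 223 in the cocultures (-0.43 ± 0.12) and the growth inhibitor Cdkn1c, whose gene lies in the same imprinted cluster, 819 and 853 in the mixes and 691 and 617 in the cocultures (-0.35 ± 0.12). The noncoding RNA Mirg had 583 and 640.2 in the mixes and 415 and 517 in the cocultures (-0.39 ± 0.14) and Mest 1381 and 1463 in the mixes and 1076 and 1232 in the cocultures (-0.30 ± 0.11). Airn, a noncoding RNA of the Igf2r cluster, went the other way with 52.1 and 65.04 in the mixes and 112 and 107 in the cocultures (0.76 ± 0.23). Its dimmer probe sets above the filter had -0.595 and -0.17, so the direction of Airn depends on the probe set.

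FGF signals through ERK, which induces its own inhibitors, the Sprouty and Spred proteins and the Dusp phosphatases, and the Etv factors. Of 15 tested members 12 lay below 0, and in 8 (53.3%) both cocultures were lower, with a median of -0.20 and array medians of -0.25 and -0.11. Spred1 had 1172 and 1332 in the mixes and 889 and 1035 in the cocultures (-0.38 ± 0.12). Spry4 had 1318 and 1093 in the mixes and 473 and 831 in the cocultures (-0.92 ± 0.35), with coculture replicate 1 far below replicate 2, and its next 2 probe sets by brightness had -0.15 and 0.12. Spry2 (2336 and 2245 in the mixes and 1555 and 2048 in the cocultures, -0.36 ± 0.20), the ERK phosphatase Dusp6 (1755 and 1842 in the mixes and 1210.3 and 1698 in the cocultures, -0.32 ± 0.19) and the effector Etv5 (6716 and 5380 in the mixes and 4822 and 5029 in the cocultures, -0.29 ± 0.19) were lower without overlap. In Dusp6 and Spry2, replicate 2 lay close to the mixes. The members with higher cocultures were the ligand Fgf4 and the phosphatase Dusp5, with 36.05 and 219.7 in the mixes and 264 and 255 in the cocultures (1.31 ± 0.64), where mix replicate 1 stood apart from the other arrays.

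AP-1 and immediate early genes had 9 members on each side of 0 (median 0.0042). The AP-1 subunit Fosl1 was dim, with 55.9 and 39.8 in the mixes and 8.95 and 10.6 in the cocultures (-1.30 ± 0.41). The AP-1 subunit Fos had 1742 and 1694 in the mixes and 2391 and 1949 in the cocultures (0.33 ± 0.16) and Ier3 3904 and 3699.5 in the mixes and 5127 and 4199.5 in the cocultures (0.29 ± 0.12). In the Myc, Max and Mxd network, Mycn, the main Myc gene of neural and early embryonic cells, had 7747 and 8142 in the mixes and 5656 and 7210.3 in the cocultures (-0.31 ± 0.17). Myc had 389 and 497 in the mixes and 170.2 and 482 in the cocultures (-0.58 ± 0.44), a value that rests on coculture replicate 1. Mlx, the partner of the Mondo proteins, had 594 and 613 in the mixes and 666 and 723 in the cocultures (0.20 ± 0.096), and the list median was -0.0038, whose sign turned with either other scaling. The dimmer Mlx probe set had -0.13, and the dimmer Mycn probe sets had -0.59 and 0.24. Wnt effectors and targets had 5 above and 6 below 0 (median -0.00039, positive with median centring). Ccnd1, which encodes cyclin D1, had 2777 and 2757 in the mixes and 2121 and 2294 in the cocultures (-0.32 ± 0.099), and the dim Rnf43, a ligase that removes Wnt receptors, 10.1 and 19.9 in the mixes and 37.2 and 37.6 in the cocultures (0.80 ± 0.28).

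Nodal and BMP genes were split evenly, 8 and 8, around a median of -0.020 that turned sign with median centring. The inhibitor Smad6 had 93.97 and 108 in the mixes and 125 and 172 in the cocultures (0.48 ± 0.18), the BMP target Id4 239 and 247 in the mixes and 308 and 287 in the cocultures (0.27 ± 0.11) and the ligand Gdf3 1744 and 1854 in the mixes and 1406 and 1696 in the cocultures (-0.22 ± 0.12). Notch genes were split 9 and 9 (median 0.018). The effectors Hes7 (40.2 and 51.9 in the mixes and 15.1 and 12.01 in the cocultures, -1.06 ± 0.25) and Hes5 and the modifier Lfng (92.4 and 90.4 in the mixes and 82.5 and 8.98 in the cocultures, -1.11 ± 0.58) were dim. For LIF and STAT3, 7 members lay on each side (median -0.0024, positive with either other scaling). Lif itself had 147 and 145 in the mixes and 211 and 176 in the cocultures (0.36 ± 0.13), the receptor Lifr 3302 and 3578 in the mixes and 3125 and 3081 in the cocultures (-0.15 ± 0.11) and the target kinase Pim1 1436 and 1642 in the mixes and 1921 and 1591 in the cocultures (0.19 ± 0.13). Hippo members had a median of 0.0096. The Yap target Ankrd1 had 475 and 505 in the mixes and 691 and 621 in the cocultures (0.41 ± 0.11), the coactivator Wwtr1 1579.7 and 1386 in the mixes and 2079.6 and 1702 in the cocultures (0.34 ± 0.14) and the adaptor Ajuba 4302 and 4472 in the mixes and 3622 and 3929.7 in the cocultures (-0.22 ± 0.10). Interferon and MHC genes had 11 of 14 above 0, but 3 (21.4%) had higher cocultures, near the 20.9% of all genes. The array medians were 0.15 and 0.0028, so the shift lay on coculture replicate 1. Irf1 had -0.32 ± 0.18, the MHC class I gene H2-D1 0.28 ± 0.15 and Stat2 0.22 ± 0.14.

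Junctions hold neighbouring cells together and separate their surfaces into domains. Junction and polarity genes had 16 of 27 above 0, near the 53% of all genes, and the share with higher cocultures, 22.2%, was near the 20.9% of all genes. The median was 0.077, and 0.024 to 0.065 with 1 array left out, lowest without coculture replicate 1 or 2 (0.024 and 0.028). The polarity protein Llgl2 had 681 and 620.4 in the mixes and 782 and 800.0 in the cocultures (0.28 ± 0.13), the tight junction proteins Tjp3 305 and 307 in the mixes and 383 and 342 in the cocultures (0.23 ± 0.11) and Cldn4 1659.8 and 1719 in the mixes and 2334 and 1978 in the cocultures (0.34 ± 0.18). E-cadherin, Cdh1, had 10762 and 9519.7 in the mixes and 9918 and 7979 in the cocultures (-0.19 ± 0.19), with overlap. Matrix and integrin genes had 21 of 25 above 0 and 9 (36%) with higher cocultures (median 0.14, array medians 0.19 and 0.069). The protease inhibitor Timp2 had 1586 and 1726 in the mixes and 2157 and 1954 in the cocultures (0.31 ± 0.12), fibronectin, Fn1, 7232 and 7330.4 in the mixes and 8615 and 7868 in the cocultures (0.18 ± 0.11) and the overlapping Col1a2 50.8 and 92.4 in the mixes and 83.9 and 112 in the cocultures (0.41 ± 0.24). Annexins and S100 proteins bind membranes and each other with calcium. Of 11 tested members 6 (54.5%) had higher cocultures, against 20.9% of all genes (median 0.12, array medians 0.19 and 0.066). Without mix replicate 1 the median was 0.065. Anxa2 had 4583 and 5374 in the mixes and 6829 and 6189 in the cocultures (0.39 ± 0.13), Anxa3 640.3 and 702 in the mixes and 848 and 754 in the cocultures (0.25 ± 0.11) and Anxa4 1052 and 937 in the mixes and 1251 and 1118 in the cocultures (0.25 ± 0.13).

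Fibroblasts can be present in stem cell cultures as feeders. Of 19 listed members 12 passed the filter and 10 lay above 0, with a median of 0.27. In 6 (50%) both cocultures were higher, against 20.9% of all genes. The summed signal of the 6 defining markers above the filter was 2402 and 2381 in the mixes and 2922 and 2846 in the cocultures, of which Pdgfra and Fbln1 made the larger part. Pdgfra alone had 1254 and 1289 in the mixes and 1446 and 1543 in the cocultures. It also stands in the primitive endoderm list, so the sum is not particular to fibroblasts. The collagen Col5a1 had 156 and 162 in the mixes and 213 and 229 in the cocultures (0.44 ± 0.11), Thy1 169.9 and 155 in the mixes and 202 and 215 in the cocultures (0.33 ± 0.13), the chemokine Cxcl12 94.9 and 100.3 in the mixes and 130.3 and 114 in the cocultures (0.28 ± 0.13), Fbln1 647 and 612 in the mixes and 775 and 735 in the cocultures (0.26 ± 0.15) and the overlapping Pdgfrb 259 and 191 in the mixes and 382 and 218 in the cocultures (0.36 ± 0.32). The next Cxcl12 probe set by brightness, also above the filter, had -0.66. Col1a1, the main fibroblast collagen, was dim on all 4 arrays (21.5 and 40.2 in the mixes and 31.8 and 22.1 in the cocultures). The part of such cells in the matrix, primitive endoderm or other differences was not tested.

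For proliferation, G2/M and mitosis genes had 17 of 22 above 0 and 10 (45.5%) with higher cocultures, by small amounts (median 0.091, array medians 0.080 and 0.069). The phosphatase Cdc25b had 429.7 and 505 in the mixes and 621 and 583 in the cocultures (0.36 ± 0.14), and the checkpoint kinases Bub1 (7584 and 7507 in the mixes and 8724 and 7946 in the cocultures) and Bub1b (3881 and 4231 in the mixes and 4535 and 4663 in the cocultures) had 0.14 ± 0.10 and 0.18 ± 0.14. G1/S and replication genes were divided (median 0.016, negative with the deposited scaling). The replication factor Cdc45 was higher (672 and 649.8 in the mixes and 789 and 872 in the cocultures, 0.32 ± 0.11), and Ccnd1 and the thymidylate synthase Tyms (98.8 and 109.9 in the mixes and 58.7 and 64.7 in the cocultures, -0.63 ± 0.22) were lower. Ribosome biogenesis genes, which build ribosomal subunits in the nucleolus, had 14 of 22 below 0 and 7 (31.8%) with lower cocultures (median -0.076, array medians -0.13 and -0.028). The helicase Ddx21 had 3537 and 3154 in the mixes and 2662 and 2471 in the cocultures (-0.38 ± 0.17), the processome protein Wdr43 5493 and 5203 in the mixes and 4318 and 4880.3 in the cocultures (-0.22 ± 0.10) and the RNA polymerase I subunit Polr1b 1738 and 1644 in the mixes and 1247 and 1501 in the cocultures (-0.30 ± 0.15). Ribosomal proteins had a median of 0.011, negative with the deposited scaling, with Rps24 at -0.10 ± 0.10, Rpl11 at 0.12 ± 0.12 and Rps14 at 0.083 ± 0.10.

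Whether these differences belong to p53-knockdown cultures was tested as the shp53 difference minus the shTop1 difference, which share no array (whether the mixes share mock RNA is not given). In this test 0 of 14267 genes (0%) passed (smallest limma adjusted p 0.292), and 239 (1.68%) lay above 0 and 375 (2.63%) below at an unadjusted p under 0.05. In the shTop1 comparison by itself 0 genes (0%) passed and 1170 (8.2%) had an unadjusted p under 0.05. None of the 20 brighter genes passed, and 1 had an unadjusted p under 0.05. That gene, Shfl, had 479.8 and 442 in the shTop1 mixes and 529 and 525 in the shTop1 cocultures (0.19 ± 0.10), against 509 and 522 and 360.1 and 393 with shp53. The difference of the effects was -0.63 ± 0.14 (limma adjusted p = 0.983). Zfas1 had 0.29 ± 0.11 with shTop1 and Per1 0.17 ± 0.15, and the differences of the effects, 0.36 ± 0.16 and 0.47 ± 0.21, did not pass. ND5 (-0.63 ± 0.11), Pgm1 (0.53 ± 0.11) and Zfp936 (-0.91 ± 0.13) were as far or farther from 0 with shTop1.

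Beyond these 20 genes, Lamp2 had -0.29 ± 0.20 with shTop1 and Tfeb 0.059 ± 0.11, each with the sign opposite to that with shp53, and Airn had -0.46 ± 0.23. Hes7 and Gm3363, both dim, were among the genes that share the smallest adjusted p of the difference. Hes7 had 7.996 and 10.3 in the shTop1 mixes and 66.7 and 122 in the shTop1 cocultures (2.09 ± 0.25), a difference of effects of -3.15 ± 0.35 (limma adjusted p = 0.292). Gm3363 had 15.8 and 21.9 in the shTop1 mixes against 24.9 and 33.1 in coculture (0.37 ± 0.16), a difference of -2.00 ± 0.22 (limma adjusted p = 0.292). Mxd3 had 245 and 221 in the shTop1 mixes and 325 and 431 in their cocultures (0.65 ± 0.17). The differences of effects for Lamp2, Tfeb, Airn and Mxd3 did not pass either (limma adjusted p of 1 for each). List medians stood side by side at 0.19 with shp53 and 0.23 with shTop1 for hypoxia, 0.15 and 0.15 for glycolysis, -0.29 and -0.24 for primed epiblast, 0.16 and 0.084 for primitive endoderm, and 0.094 and 0.038 for the p53 targets. These differences between lists were not tested. Fgf5 had -1.62 ± 0.19 with shTop1, farther below 0 than with shp53 (difference 1.23 ± 0.27, limma adjusted p = 0.943). No gene was therefore called as particular to the p53-knockdown cocultures.

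**Figure D5:**
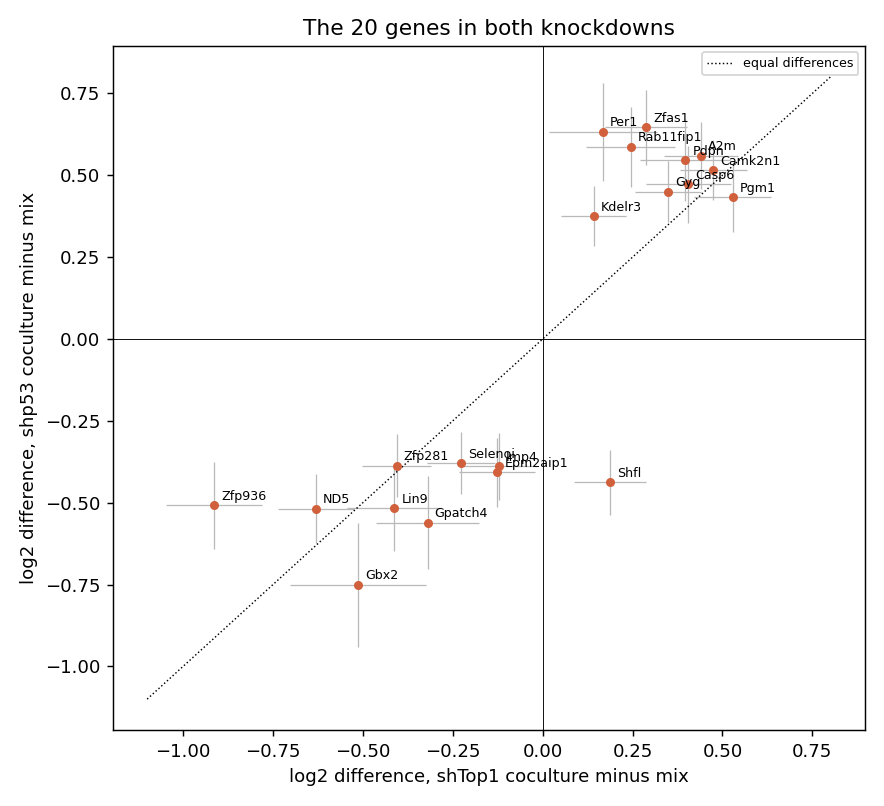
Each point is 1 of the 20 brighter genes with the smallest p in the shp53 comparison, with the shTop1 log2 difference, coculture minus mix, across and the shp53 difference upwards. Lines are ± SE of the fit and the dotted line marks equal differences. Shfl is the gene in the lower right, at -0.44 with shp53 and above 0 with shTop1.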

How the data were processed

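Total RNA of 8 cultures or RNA mixes was measured on Affymetrix arrays, per the labels' protocols. The authors deposited 1 linear signal intensity per probe set and array. The tool and settings that made it are not given in the sources used here, and from the values each array was scaled to a trimmed mean of 500.003 or 500.004. Probe sets were named from the platform annotation (34958 with 1 symbol, 932 with several, 9211 not listed).

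From the deposited intensity, values were quantile normalized and taken as log2(signal + 16), a scale that understates changes of dim genes. The brightest probe set stood for each gene, and genes with a mean at or above the 30th percentile of all probe sets were kept. limma 3.58.1 in R 4.3.3 fitted 4 group means over 8 arrays (4 residual degrees of freedom), with Benjamini-Hochberg adjustment over all 14267 genes. The code was checked on simulated data. Arrays have no read depth, and 2 a group limits the precision.

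The genes named by rule were the 10 brighter genes with the smallest p in each direction, the 4 with the smallest p over all genes, the 3 members of each list with the smallest p, any gene called, Top1 and the cell type markers. Further list members were named for their role after their values were seen. The members, lists and rules were chosen with earlier results of these data known. Promoters came from RefSeq (GRCm38.p6), matched by symbol. Alternatives covered the scaling, filter, pseudocount, probe set rule, variance model, samples in the fit, a replicate block and leaving out arrays.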

Additional observations from a re-analysis of the deposited data

Results flagged for a closer look

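The array medians of the Myc, Max and Mxd network list lay on opposite sides of the mixes with the 2 knockdowns. Both shp53 cocultures had array medians above both mixes, both shTop1 cocultures had array medians below both mixes, and the median of shp53 minus shTop1 over members was 0.0924. This difference was not tested. It rests on 12 genes. The medians of the members' fitted differences had the reverse signs, -0.0038 with shp53, where the coculture array medians were 0.057 and 0.13, and 0.022 with shTop1, so no direction is given for this list. No group held enough arrays to look for a single array far from the others.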

How the results depend on the processing

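No gene passed limma's adjusted p of 0.05 in the shp53 comparison under any alternative except trended and robust variances, which called 1 (Mxd3), and none passed in the difference between the knockdowns under any alternative run. At an unadjusted p under 0.05 there were 552 higher and 427 lower genes, against 448 and 469 with the deposited scaling alone and 508 and 322 with median centring. The excess of higher genes also turned without coculture replicate 1 (407 against 474) and without coculture replicate 2 (487 against 582). Every probe set by itself gave 877 and 846 probe sets, where more features were tested, and leaving out 1 array gave 407 to 651 higher and 285 to 582 lower. With the replicate number as a block, 0 genes passed and 543 were higher and 444 lower at an unadjusted p under 0.05. The numbers were not taken as pairing the samples, since deviations of same-numbered arrays correlated at 0.035 over genes with shp53 and -0.0067 with shTop1 (0.11 and -0.11 over the brighter genes).

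Of 186 named genes 151 kept their sign in every setting, as did 21 of 37 list medians. With all probe sets of a gene averaged, the log2 difference turned to -0.00553 for Aldoc, -0.0547 for Anxa2, -0.12 for Bad, -0.16 for Bcl2, -0.042 for Bub1, -0.12 for Bub1b, -0.17 for Cdc45, -0.0367 for Col1a2, -0.15 for Depdc5, 0.0172 for Epm2aip1, -0.0198 for Esrrb, -0.0986 for Fbln1, -0.30 for Gata6, -0.0282 for H2-D1, 0.0496 for Lin28a, -0.0379 for Pfkfb3, 0.23 for Rps24, -0.16 for Sesn1, -0.21 for Sox7, -0.17 for Sp110, -0.0298 for Timp2 and -0.0654 for Top1. With the deposited scaling alone it turned to -0.00316 for Gapdh, -0.000928 for Ldha, -0.0177 for Pou5f1 and -0.0147 for Slc2a1. With median centring it turned to 0.0117 for Klf5. With 1 array left out, genes that turned sign had ranges of Ccng1 -0.0112 to 0.18, Col1a1 -0.40 to 0.19, Egln1 -0.0945 to 0.25, Esrrb -0.0174 to 0.0671, Gata4 -0.0962 to 0.17, Myc -1.29 to 0.13, Pdgfrb -0.0253 to 0.74, Pou5f1 -0.059 to 0.0781, Slc2a1 -0.0663 to 0.19, Sox7 -0.0343 to 0.0766, Sp110 -0.25 to 0.44, Utf1 -0.0951 to 0.24 and Zfp352 -0.44 to 0.85. The cause of these turns was not tested. The deposited signals carry no measure of detection above background, so dim genes are limited by the filter alone.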
